A study of Mus musculus with 2 samples.

Results

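The miR-26 family consists in mouse of 3 genes, Mir26a-1, Mir26a-2 and Mir26b, and its levels were read here in left cerebral cortex. The genes were taken by name from the 2202 miRNA genes counted in each library. The family was chosen by its sense counts in these same libraries, in particular the wide difference of Mir26a-1 between them, so the levels and ratios are given as descriptions with no test. The study sequenced small RNA below 30 nucleotides of that tissue in B6CASTF1/J mice aged 18 to 20 months, a first cross of the C57BL/6J and CAST/EiJ strains. There is 1 group of 2 biological replicates, each with 1 technical replicate, and no treatment, genotype or age was contrasted. The source name and sex field give female while the free text gives male, and both libraries carry the same donor identifier, so whether they came from separate animals rests on the replicate numbers alone and their spread may be technical.

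A miRNA gene is transcribed as a hairpin that is cut into a 5p and a 3p mature arm, and bases 2 to 8 of a mature arm, its seed, pair with target mRNAs. The 3 miR-26 genes lie in genes of the Ctdsp family, which encode small phosphatases that act on the C-terminal domain of RNA polymerase II and work with REST, the repressor of neuronal genes outside neurons. miR-26 is known as a broadly expressed miRNA of differentiated tissue, and in neural differentiation it has been described as acting on Ctdsp2, a gene of this host family.

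The mature arms are shown because they set which reads can be told apart between the genes. Sequences are from RefSeq (GRCm38.p6, the build named mm10 in the files), all 3 genes matched, and capitals mark the seed.
miR-26a-5p (from Mir26a-1 and Mir26a-2): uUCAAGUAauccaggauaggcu
miR-26b-5p (from Mir26b): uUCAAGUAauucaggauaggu
miR-26a-1-3p (from Mir26a-1): cCUAUUCUugguuacuugcacg
miR-26a-2-3p (from Mir26a-2): cCUGUUCUugauuacuuguuuc
miR-26b-3p (from Mir26b): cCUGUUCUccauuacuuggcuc

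The 5p seed UCAAGUA was the same in all 3 genes and was found in no other gene of the RefSeq table. Counted from 1 at the 5′ end of miR-26a-5p, miR-26b-5p differed from it by C11U and C21U, both outside the seed. The 3p arms differed more. Between miR-26a-1-3p and miR-26a-2-3p there were 6 differences over 22 bases, one of them (A4G) in the seed, so that Mir26a-1 had the 3p seed CUAUUCU to itself. Mir26a-2 and Mir26b shared the 3p seed CUGUUCU, which also occurred in Mir6932 and Mir7039.

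The hairpins show how far the likeness extends, with the 5p mature arm in capitals.
Mir26a-1: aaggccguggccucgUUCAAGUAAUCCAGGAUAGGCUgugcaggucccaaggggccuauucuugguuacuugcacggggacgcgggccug
Mir26a-2: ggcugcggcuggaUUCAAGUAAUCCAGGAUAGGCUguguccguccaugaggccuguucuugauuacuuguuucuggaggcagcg
Mir26b: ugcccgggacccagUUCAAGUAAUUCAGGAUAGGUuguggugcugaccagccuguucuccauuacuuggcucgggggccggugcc

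The longest stretch common to Mir26a-1 and Mir26a-2 was 25 nucleotides, the mature arm plus 3 bases after it. Mir26b shared at most 11 nucleotides with Mir26a-1 and 10 with Mir26a-2. Of the 22-nucleotide windows of each hairpin, 4 of 69 in Mir26a-1 and 4 of 63 in Mir26a-2 occurred in another miRNA gene of GENCODE M21, on either strand, and in each case that gene was the other Mir26a copy. None of the 64 windows of Mir26b did. A full-length miR-26a-5p read therefore has both Mir26a genes as its place, while miR-26b-5p and the 3 3p arms belong to 1 miRNA gene each. The deposited tables list reads with several places in the genome on a line of their own and count them to no gene. The counts are not split by arm, so which part of a hairpin the reads of a gene covered was not tested.

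**Figure D1:**
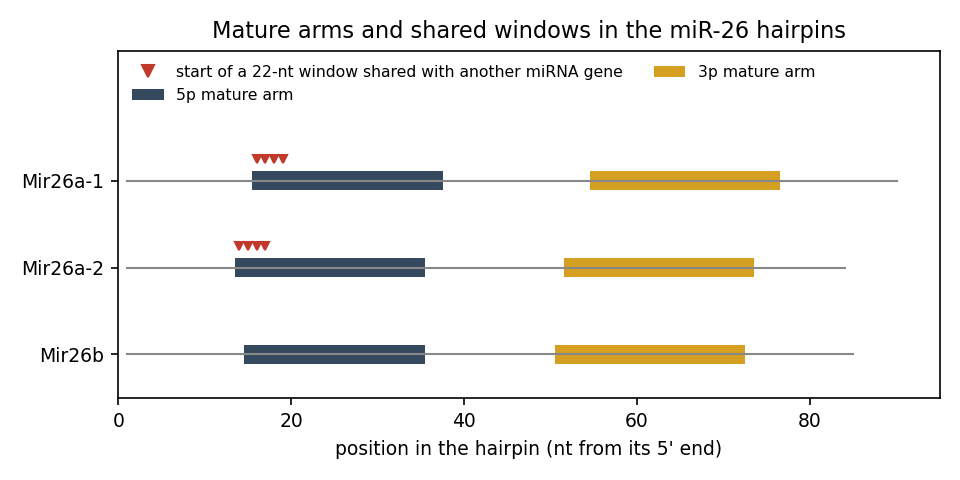
Position of the mature arms in each miR-26 hairpin, in nucleotides from the hairpin's 5′ end; triangles mark the start of each 22-nucleotide window that occurs in another miRNA gene. The 4 shared windows of Mir26a-1 and of Mir26a-2 start at the 5p arm, and Mir26b has none.

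All 3 hairpins lay on the plus strand, each in the same direction as its host, and at none of them did another gene of the annotation overlap (mm10, GENCODE M21). Mir26a-1 (ENSMUSG00000065513.1, 90 nucleotides) lay on chromosome 9 at 119031796 to 119031885, in intron 5 of 7 of Ctdspl and near the middle of that 3283-nucleotide intron. Mir26a-2 (ENSMUSG00000065430.1, 84 nucleotides) lay on chromosome 10 at 126995530 to 126995613, in intron 5 of 7 of Ctdsp2, which is 1946 nucleotides long. A shorter protein-coding transcript of Ctdsp2 and a transcript annotated as a retained intron both start at the last base of this hairpin, an exon overlap of 1 nucleotide, so the intronic label holds for the longer transcript. Mir26b (ENSMUSG00000065468.1, 85 nucleotides) lay on chromosome 1 at 74394310 to 74394394, in intron 4 of 6 of Ctdsp1, a short intron of 564 nucleotides. A further miRNA gene, Mir546, lies inside Ctdsp2 and had 0 sense counts in both libraries.

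The libraries held 5166667 (replicate 1) and 4459993 (replicate 2) sense counts, and 409 genes were expressed, meaning a level of 2 or more in both. Levels are in CPM, counts per 1000000 sense counts. The tissue label was read against miRNAs of known cell types. The neuron list (Mir124a-1, Mir124a-2, Mir124a-3, Mir128-1, Mir137, Mir138-1 and Mir132) summed to 72990 CPM and 60352 CPM in replicates 1 and 2. Mir132 alone gave 42450 CPM and 33684 CPM of these sums. Of the 7 genes of the list 4 were expressed, beside 18.6% of all genes. The 3 Mir124a genes were below the threshold in at least 1 library. Reads with several places in the genome are counted to no gene, so the Mir124a counts need not give the level of miR-124. Both oligodendrocyte genes, all 3 glial, all 3 microglial and leukocyte, all 3 vascular and both red cell genes were expressed, beside 18.6% of all genes. In replicates 1 and 2 the glial list summed to 23757.5 and 29865.3 CPM and the vascular list to 26333.4 and 20306.5 CPM. Mir23b alone gave 21331 and 26094 CPM of the glial sums. The vascular genes went in opposite directions. Mir126a went from 21257 to 10411 CPM, while Mir143 went from 4865 to 9150 CPM and Mir145a from 211.7 to 745.7 CPM. The sums were 3945 and 3862 CPM for oligodendrocytes, 1351 and 1281 CPM for microglia and leukocytes, and 79.2 and 52.7 CPM for red cells. Of the microglial and leukocyte sums Mir150 gave 1286 and 1154 CPM, while Mir142 went from 52.3 to 98.7 CPM and Mir223 from 13.4 to 27.6 CPM. Of the 4 genes of other tissues Mir133a-1 was at 0 counts and 3 were expressed, and the list summed to 383.2 CPM and 382.1 CPM. Mir133a-1 has a numbered copy, Mir133a-2, also at 0 counts, and reads that fit both would be counted to neither. A count of 0 here need not mean that miR-133a was absent.

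Mir26b was the dominant gene of the family in these counts. It had 31976 sense counts in replicate 1, or 6189 CPM (exact 95% interval 6121 to 6257), and 59103 in replicate 2, or 13252 CPM (13146 to 13358). The intervals did not overlap, and replicate 2 was the higher library, 2.14-fold on total sense counts. The mean was 9720 ± 4994 CPM (SD, n = 2), which placed Mir26b 21st of the 2202 genes, at rank 30 in replicate 1 and rank 15 in replicate 2. Its share of sense counts was 0.619% and 1.33%.

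Mir26a-2 had 294 sense counts in replicate 1 (56.9 CPM, 50.6 to 63.8) and 227 in replicate 2 (50.9 CPM, 44.5 to 58.0). The intervals of the libraries overlapped, and the mean was 53.9 ± 4.25 CPM (SD, n = 2). Its log2 ratio of replicate 2 to replicate 1 was -0.16 (counting interval -0.42 to 0.09). That sign depended on the scaling, since DESeq2 size factors gave 0.043.

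Mir26a-1 was the one of the 3 genes in which the libraries stood furthest apart. It had 45 sense counts in replicate 1 (8.71 CPM, 6.35 to 11.7) and 463 in replicate 2 (103.8 CPM, 94.6 to 113.7). The intervals did not overlap and the level was 11.8-fold higher in replicate 2, so the mean of 56.3 ± 67.2 CPM (SD, n = 2) describes neither library. Its rank moved from 331 in replicate 1 to 185 in replicate 2.

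**Figure D2:**
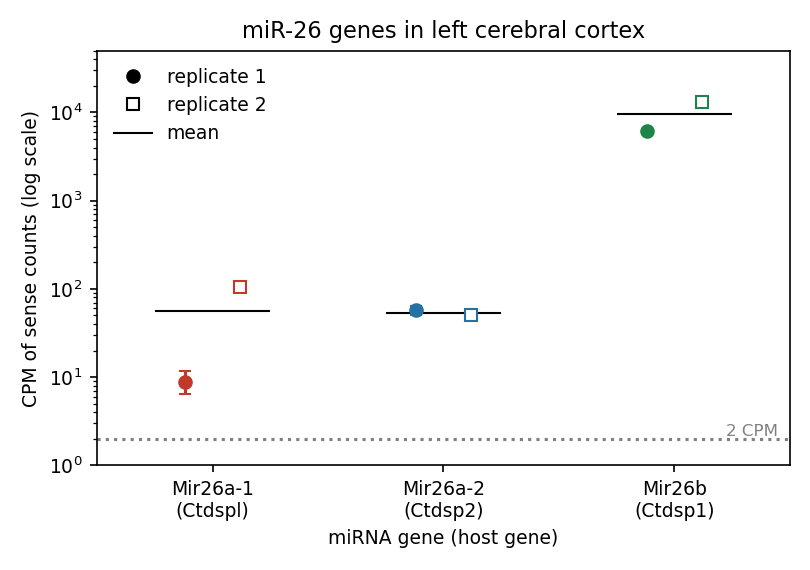
Level of each miR-26 gene in CPM of sense counts on a log axis, with the host gene below; filled circles are replicate 1, open squares replicate 2, bars exact 95% counting intervals (often smaller than the marker) and lines the means. Mir26b lies at 6189 and 13252 CPM, and Mir26a-1 moves from 8.71 to 103.8 CPM while Mir26a-2 stays near 53.9 CPM.

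All 3 genes were expressed, beside 18.6% of all genes. None had an antisense count in either library, and the unstranded column gave the same count for each. Together they reached 6255 CPM and 13407 CPM in replicates 1 and 2, 0.983% ± 0.506 of sense counts (SD, n = 2). Intervals cover counting error only. With 2 libraries an exact sign-flip test cannot go below p = 0.5, so no order of the genes was tested.

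The makeup of the family was alike in the libraries for Mir26b and not for the Mir26a genes. Mir26b held 99.0% of the family's counts in replicate 1 (98.8% to 99.1%) and 98.8% in replicate 2 (98.8% to 98.9%). Its count was 94.3 times the summed Mir26a counts in replicate 1 and 85.7 times in replicate 2, although that sum itself went from 65.6 CPM to 154.7 CPM. In these counts Mir26b thus stood above both Mir26a genes in both libraries. Full-length miR-26a-5p reads fit both Mir26a genes and are counted to neither, while Mir26b shares no window. The shares therefore describe countable reads and need not give the makeup of the mature miRNAs.

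Within the Mir26a pair the order turned over. Mir26a-2 held 86.7% of the pair's counts in replicate 1 (82.6% to 90.2%) and 32.9% in replicate 2 (29.4% to 36.5%). As a log2 ratio, Mir26a-2 over Mir26a-1 was 2.69 in replicate 1 and -1.03 in replicate 2, with a mean of 0.83 ± 2.63 (SD, n = 2). A ratio inside a library does not depend on how the libraries are scaled. Which Mir26a gene is the higher therefore cannot be stated from these libraries.

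Between the libraries, the log2 ratio of replicate 2 to replicate 1 was 3.56 for Mir26a-1 (counting interval 3.13 to 4.05) and 1.10 for Mir26b (1.08 to 1.12), beside -0.16 for Mir26a-2. Both were over 2-fold higher in replicate 2, as were 5.38% of the 409 expressed genes, while 19.6% were over 2-fold lower and 24.9% differed over 2-fold either way. The median over expressed genes was -0.17. No expressed gene had a higher ratio than Mir26a-1, and 2 had a larger one in absolute terms, both towards replicate 1. For Mir26b, 19 expressed genes had a higher ratio. Among the 62 other expressed genes within 2-fold of the mean level of Mir26a-1, 2 were over 2-fold higher in replicate 2 and 18 over 2-fold lower. Among the 30 such genes around Mir26b, 1 was over 2-fold higher and 5 over 2-fold lower. These values chose the genes in part, so nothing is read from them. Scaling by TMM moved every log2 ratio by 0.13 and by DESeq2 size factors by 0.20, and then 8.07% and 9.29% of expressed genes were over 2-fold higher in replicate 2 and 16.1% and 14.4% over 2-fold lower.

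**Figure D3:**
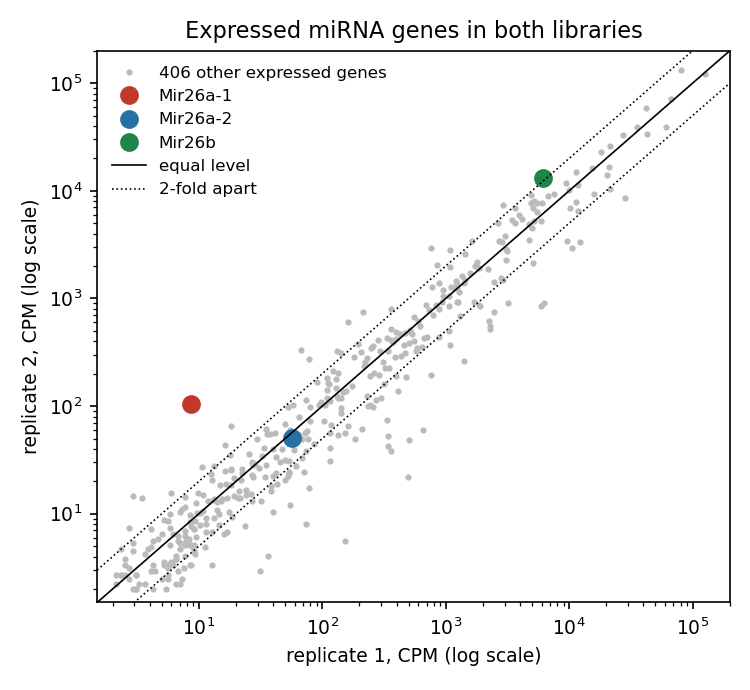
CPM of each expressed miRNA gene in replicate 1 (x) against replicate 2 (y), both on log axes; grey points are the 406 other expressed genes, the solid line marks equal levels and the dotted lines a 2-fold difference. Mir26a-1 lies far above the upper dotted line, Mir26b just above it and Mir26a-2 on the line of equal levels.

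The genes nearest to each member in level over both libraries were found by the distance on log2(CPM + 1), which rests on 2 libraries only. Nearest to Mir26b were Mir433 at 7864 ± 1612 CPM and Mir770 at 8405 ± 1316 CPM, both of the imprinted Dlk1-Dio3 region on chromosome 12, and Mir151 at 10644 ± 1729 CPM. Each of the 3 had a log2 ratio between 0.32 and 0.42, below that of Mir26b. Nearest to Mir26a-2 were Mir7-2 at 53.4 ± 10.5 CPM, Mir29b-1 at 58.9 ± 7.55 CPM and the liver miRNA Mir122 at 57.3 ± 3.90 CPM. Nearest to Mir26a-1 were the muscle miRNA Mir206, with 94 and 292 counts, and the Hox cluster genes Mir10b, with 84 and 196, and Mir10a, with 92 and 157. All 3 had more counts in replicate 2, a direction that choosing by the levels in both libraries favours, so nothing is read from it. None came closer to Mir26a-1 than 1.18 log2 units.

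Other miRNAs with numbered gene copies were set beside the Mir26a pair, since they too can share a mature arm. Of 53 such miRNAs, 20 had both of their first copies expressed. The log2 ratio of copy 2 to copy 1 changed between the libraries by a median of 0.45 in absolute terms, and by 3.72 for Mir26a. Among the 20 only Mir181a changed by more, 3.91, with 162 and 13 counts of Mir181a-2, though Mir181a-1 stayed the higher copy in both libraries. The order of the copies turned over in 3 of the 20: Mir26a, Mir135a (log2 ratio -1.25 in replicate 1 and 0.48 in replicate 2) and Mir7 (0.77 and -0.24). In pairs such as Mir138 (-0.70 and -0.65) and Mir92 (-4.25 and -4.22) the ratio was nearly the same in both libraries. Mir26a had been picked with its change known, so its place is a description.

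**Figure D4:**
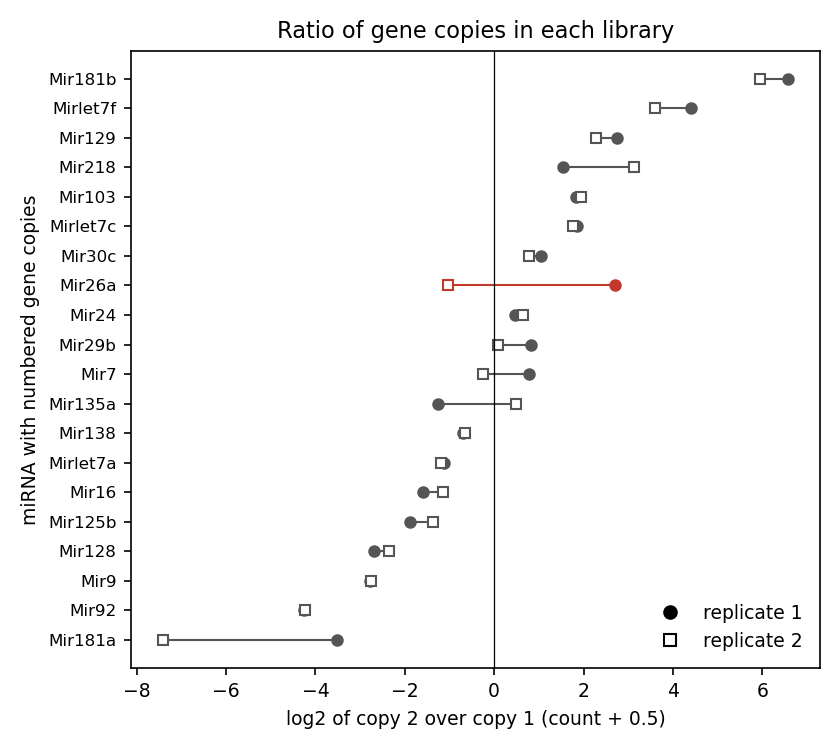
Log2 ratio of gene copy 2 to copy 1 (count + 0.5) for the 20 miRNAs with both copies expressed, ordered by the mean; filled circles are replicate 1 and open squares replicate 2. Mir26a, in red, goes from 2.69 to -1.03 and crosses the line of equal copies, while 17 of the 20 pairs keep their order in both libraries.

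The excess of Mir26b over its copied relatives was compared with that in other miRNAs with copies. In 14 miRNAs with expressed numbered copies, at least 1 expressed gene without a numbered copy shared a mature seed with them, and in 13 the highest such gene stood above the summed copies in both libraries. The median of the mean log2 ratio was 3.91. For Mir26b over Mir26a it was 6.49 ± 0.10 (SD, n = 2), the third of 14. Mirlet7g over the Mirlet7a copies (7.71 ± 0.15) and Mir29a over the Mir29b copies (7.05 ± 0.25) lay higher. Next came Mir107 over the Mir103 copies at 6.43 ± 0.42. The 14 are not independent, since the Mirlet7a, Mirlet7c and Mirlet7f copies were all set against Mirlet7g, and the Mir181a and Mir181b copies against Mir181d. The exception was Mir194, whose copies stood above Mir6926. Taking the highest relative favours miRNAs with many relatives, and Mir26a had only Mir26b. Over all 42 pairs of summed copies and a relative, 32 relatives stood above the copies in both libraries and 7 below in both. The median over these pairs was 3.52, and Mir26b was at place 5. Reads that fit several copies are not in any of these gene counts, so these ratios are of countable reads and not of the mature miRNAs.

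**Figure D5:**
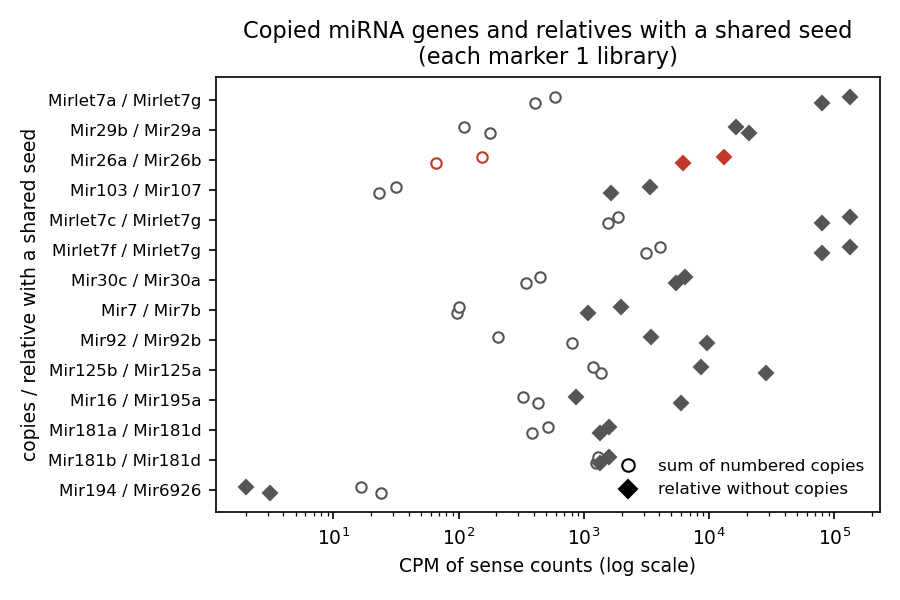
Summed CPM of the numbered gene copies (open circles) and CPM of the highest expressed gene that shares a seed and has no numbered copy (filled diamonds), on a log axis with 1 marker per library. Mir26a and Mir26b, in red, are at 65.6 and 154.7 CPM against 6189 and 13252 CPM, the third widest gap of the 14 miRNAs with copies.

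Other miRNAs in introns of related host genes were read beside the family. Apart from the miR-26 genes, 13 genes were listed as lying in introns of related hosts and 10 of them were expressed, beside 18.6% of all genes. Of these 10, Mir107 was over 2-fold higher in replicate 2, beside 5.38% of all expressed genes, and none was over 2-fold lower, beside 19.6%. Their median log2 ratio was 0.42, beside -0.17 over all expressed genes. Mir107, in the Pank family of pantothenate kinase genes, went from 1642 CPM to 3385 CPM between replicates 1 and 2. Its relatives Mir103-1 (5.03 and 6.50 CPM) and Mir103-2 (18.2 and 25.3 CPM) had low counts in both. Mir103-1 and Mir103-2 share a mature arm, and reads with several places in the genome are counted to no gene. Their counts therefore need not give the level of miR-103. Mir128-1 and Mir128-2, neuronal miRNAs with a shared mature arm, were at 17218 ± 4441 CPM and 2959 ± 271.6 CPM. Which arm their reads covered was not tested. Mir208b, a miRNA of muscle myosin genes, had 0 counts in both libraries, which allows a level of up to 0.581 and 0.673 CPM in them.

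Among 8 neuronal miRNA genes linked to REST, with which the Ctdsp phosphatases act, 5 were expressed, beside 18.6% of all genes. None of these 5 was over 2-fold apart between the libraries, beside 24.9% of all expressed genes. Mir132, induced by neuronal activity, was the highest at 38067 ± 6199 CPM, above Mir26b in both libraries. Mir212 was at 549.7 ± 172.7 CPM and Mir9-3 at 80.1 ± 31.4 CPM. The 3 genes of miR-124, the main neuronal miRNA, were not expressed by the threshold, with Mir124a-1 the highest at 21 and 6 counts. miR-124 and miR-9 each have 3 genes, and reads with several places in the genome are counted to no gene. These counts therefore need not give the level of either mature miRNA.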

How the data were processed

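Small RNA libraries from left cerebral cortex were deposited as read counts per miRNA gene, which the authors did not normalize, with build mm10 and annotation M21 per the file headers of the deposited description. The aligner and counter were not given in the sources used here. Column 3 was taken as sense. The 4 lines that name no gene (65.2% and 65.1% of reads) were left out of totals. Reads of the CAST/EiJ parent that differ from mm10 may have been placed less often, which was not tested.

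All 2202 identifiers matched GENCODE M21 symbols. Levels are CPM of total sense counts. Ratios between libraries add 0.5 to each count. Intervals are exact (Clopper-Pearson, 95%, scipy 1.17.1). A count of 0 was read as up to 3 counts. Scaling alternatives used edgeR 4.0.16 (TMM) and DESeq2 1.42.0 (size factors). The ratio calculation was checked on simulated counts. Seeds and shared arms came from RefSeq mature sequences, with 1018 of the 2202 genes matched by symbol. Numbered copies were taken from the gene symbols alone. No test between groups was possible in 1 group. Named genes are the members, the 3 expressed genes nearest to each in level, and the extremes or members of lists by symbol. Members and lists were chosen with earlier results of these data known. Leaving out each library, the strand column, denominators, pseudocounts and thresholds were varied.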

Additional observations from a re-analysis of the deposited data

Results flagged for a closer look

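Signal outside the gene counts exceeded 3 counts in both libraries. The line for multi-mapping reads, those with more than 1 place in the genome, held 6203588 reads (41.8%) in replicate 1 and 5928954 reads (46.4%) in replicate 2. The tables do not say which miRNAs they belong to. How many were miR-26a-5p, whose sequence lies in both Mir26a genes, was not tested.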

How the results depend on the processing

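Of 83 recomputed values, 66 were labelled unchanged, 14 moved and 3 reversed in sign. Of the 83, 7 used a scaling chosen after seeing the data (TMM on genes kept by filterByExpr). The margin was the SD of the 2 libraries, the counting interval for ratios between libraries, and a set fold for places and gene counts. Leaving out 1 of 2 libraries cannot move a level or share past that SD, so those labels were fixed in advance. Shares in the unstranded column could not differ either. For Mir26a-1 the SD (67.2 CPM) exceeds the mean (56.3 CPM), so much lower levels also counted as unchanged. With all reads as the denominator Mir26a-1 was at 19.6, Mir26a-2 at 18.8, Mir26b at 3388 and the sum of the 3 genes at 3427 per 1000000 reads. With sense plus multi-place reads they were at 24.3, 23.9, 4251 and 4299. Without Mir139 in the denominator Mir26a-2 was at 61.5 CPM, and in the unstranded column at 58.3 CPM. These levels follow from the other totals. Its rank in the unstranded column was 206, with its own counts the same. The log2 ratio between libraries of Mir26a-2 was 0.043 with DESeq2 size factors and 0.026 with filtered TMM, against -0.16. For Mir26b it was 1.23 with TMM, 1.30 with DESeq2 and 1.28 with filtered TMM. Leaving out 1 library gave the Mir26a-1 rank as 185 to 331 and the log2 ratio of Mir26a-2 to Mir26a-1 as -1.03 to 2.69; the cause was not tested. Counting genes with any count, 188 of 619 were over 2-fold apart, against 102 of 409. No paired analysis was possible because there is 1 group. For Mir26a-1 and Mir26b the spread between the libraries exceeded the counting intervals, while for Mir26a-2 the intervals overlapped.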

Other observations

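Of the 1018 genes with a mature entry, 57 share some but not all mature arms with another gene, and 38 of these were expressed, Mir26a-1 and Mir26a-2 among them at places 22 and 24 by level. Their median was 94.8 CPM, beside 108.8 CPM for the 322 expressed genes with no shared arm. For the 7 expressed genes with every mature arm shared it was 80.1 CPM. These medians leave out all genes below the threshold. Expressed were 66.7% of the 57, 34.8% of the 924 genes with no shared arm and 18.9% of the 37 with every arm shared. Over all genes the share was 18.6%. The highest of the 38 were Mir128-1 (17218 CPM) and Mir138-1 (4765 CPM), both neuronal miRNAs. Of the 38, 9 were over 2-fold apart between the libraries (23.7%), against 82 of the 322 (25.5%). Mir26a-1 had the highest log2 ratio of the 38 (3.56) and Mir181a-2 the lowest (-3.38). These values were read after the results were seen, and no test was made.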
